A study of Homo sapiens with 10 samples.

Results

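The metallothioneins described here were the 8 genes MT1A, MT1B, MT1E, MT1F, MT1G, MT1H, MT1X and MT2A, found as the non-control probes that carried these gene names on an Agilent Whole Human Genome array. They had 14 of the 41000 probes and were 8 of the 28090 genes named on the array. RNA of PC-3 cells, an androgen-independent line from a human prostate cancer, was hybridized on 10 single-color arrays, a pair for each of 5 conditions. These were the start of the experiment, 0 h without treatment, and 24 h with DMSO, the solvent, with 60 µM luteolin, a plant flavone, with 60 µM gefitinib, an inhibitor of the EGF receptor kinase, or with both drugs at 60 µM each. The arrays of a group were labelled as biological replicates of the same cell line, and each drug was used at a single dose and time. Groups were taken from the sample labels, but the names of the scanner files carried another treatment for the drug-treated arrays. The files of the luteolin-labelled arrays were named for gefitinib, those of the gefitinib-labelled arrays for both drugs, and those of the arrays labelled with both for luteolin. Which was right was not tested, so each treated group is called by its label, and exchanging the names moves each value to the other treatment.

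Metallothioneins are small proteins rich in cysteine that bind zinc, copper and cadmium. Their genes lie side by side on chromosome 16 and are known to be induced by metals through MTF1, a zinc-sensing transcription factor that binds metal response elements in their promoters, as well as by glucocorticoids and oxidative stress. MT2A is usually the most abundant form in human cells, and the MT1 genes are close copies of each other. In a bulk sample, fewer cells and less RNA per cell cannot be told apart.

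On hg18, the build of the files, the member probes lay on chromosome 16 between positions 55200782 and 55275470, a stretch of 74689 bases. All were on the plus strand except those of MT1G. Their exonic or UTR position was not analysed here. The MT2A probe of highest signal was at chr16:55200782-55200841, that of MT1F at chr16:55250578-55250637 and that of MT1X at chr16:55275399-55275458. Of the 14 probes, 4 listed accessions of more than 1 metallothionein gene. The probe used for MT1X also listed MT1A and MT1H, the probe used for MT1A also listed MT1M, and that used for MT1H also listed MT1L and MT1X. The last stood at chr16:55228291-55228350, away from the other MT1H probe at chr16:55261957-55262342. The probes used for MT1B, MT1E, MT1F, MT1G and MT2A listed their own gene only. Since the coding sequences are near copies, signal of the MT1 probes may be shared between genes and the values of these genes are uncertain to that extent.

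Promoter sequence was held for 4 of the 8 members, MT1B, MT1H, MT1X and MT2A, in the RefSeq table of GRCh38.p14. It is shown because all 4 genes are classical metal-induced genes and because zinc-responsive genes are described further down. The windows are the 250 bases before the start, all on the plus strand, at chr16:56651636-56651885 for MT1B, chr16:56669564-56669813 for MT1H, chr16:56682220-56682469 for MT1X and chr16:56608334-56608583 for MT2A. Capitals mark the core of the metal response element, spelled TGCACNC or TGCGCNC on either strand, and no 2 of these matches overlapped.
MT1B: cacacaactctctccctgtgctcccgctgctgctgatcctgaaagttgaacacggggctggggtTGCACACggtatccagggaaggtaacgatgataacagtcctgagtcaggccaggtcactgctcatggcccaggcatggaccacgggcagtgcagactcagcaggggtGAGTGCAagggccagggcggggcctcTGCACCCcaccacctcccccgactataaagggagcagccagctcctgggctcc
MT1H: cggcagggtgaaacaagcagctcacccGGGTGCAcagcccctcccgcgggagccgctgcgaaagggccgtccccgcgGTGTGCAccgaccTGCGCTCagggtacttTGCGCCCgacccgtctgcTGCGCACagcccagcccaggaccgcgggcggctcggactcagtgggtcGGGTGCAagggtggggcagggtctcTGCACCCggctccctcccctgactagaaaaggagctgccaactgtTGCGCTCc
MT1X: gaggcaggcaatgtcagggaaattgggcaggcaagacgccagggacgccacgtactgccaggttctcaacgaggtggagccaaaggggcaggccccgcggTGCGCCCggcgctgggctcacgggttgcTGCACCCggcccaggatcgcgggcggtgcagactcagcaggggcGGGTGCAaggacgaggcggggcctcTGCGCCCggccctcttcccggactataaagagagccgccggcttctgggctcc
MT2A: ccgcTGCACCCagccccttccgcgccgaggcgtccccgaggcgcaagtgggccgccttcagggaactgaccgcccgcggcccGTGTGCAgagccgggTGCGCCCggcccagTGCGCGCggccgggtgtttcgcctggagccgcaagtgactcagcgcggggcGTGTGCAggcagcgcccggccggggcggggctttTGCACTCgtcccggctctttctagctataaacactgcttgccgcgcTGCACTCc
The core occurred 3 times in MT1B, 8 times in MT1H, 4 times in MT1X and 7 times in MT2A. Among 35116 promoter windows of this length, 24.8% held at least 1 match and 0.37% held 4 or more. The 3 MT1 promoters each held a match from -53 to -47, counted back from the start, and MT2A held one from -54 to -48. The core of the antioxidant response element, TGACNNNGC on either strand, occurred once in MT1B, MT1X and MT2A, did not occur in this window of MT1H, and was held by 10.9% of all windows, with no overlap with the capitals. A match of letters is a description and not a measured binding site.

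Signal was strong for the whole family. All 8 genes were well above background on 10 of 10 arrays, through 13 of their 14 probes, so none was tested only because it was high in 1 group. The remaining probe, A_23_P420942 of MT1E, was well above background on no array and was left out. Apart from MT1F, the probe that stood for each gene, its brightest, was among the brightest 4.26% of probes on every array, with processed signals from 12077 to 259434, and no spot was saturated. Probe brightness is not an amount of RNA, so the genes were compared with themselves only. The arrays differed in overall brightness. The 75th percentile of the signal was 1177 to 1402 at 0 h, 1283 to 1350 with DMSO, 1041 to 1173 with the luteolin label, 628 to 651 with the gefitinib label and 540 to 865 with the label of both drugs. Levels below are log2 signals relative to that percentile, unless the signal as deposited is named. The epithelial markers KRT8, KRT18, EPCAM and CD44 were well above background on 10 arrays, and the leukocyte gene PTPRC on 0. KLK3, which PC-3 is known to express little or not at all, was well above background on 10 arrays at levels of 3.38 to 5.14, while the fibroblast and leukocyte genes COL1A1, COL1A2, COL3A1 and CD3E were at most at -2.10.

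**Figure D1:**
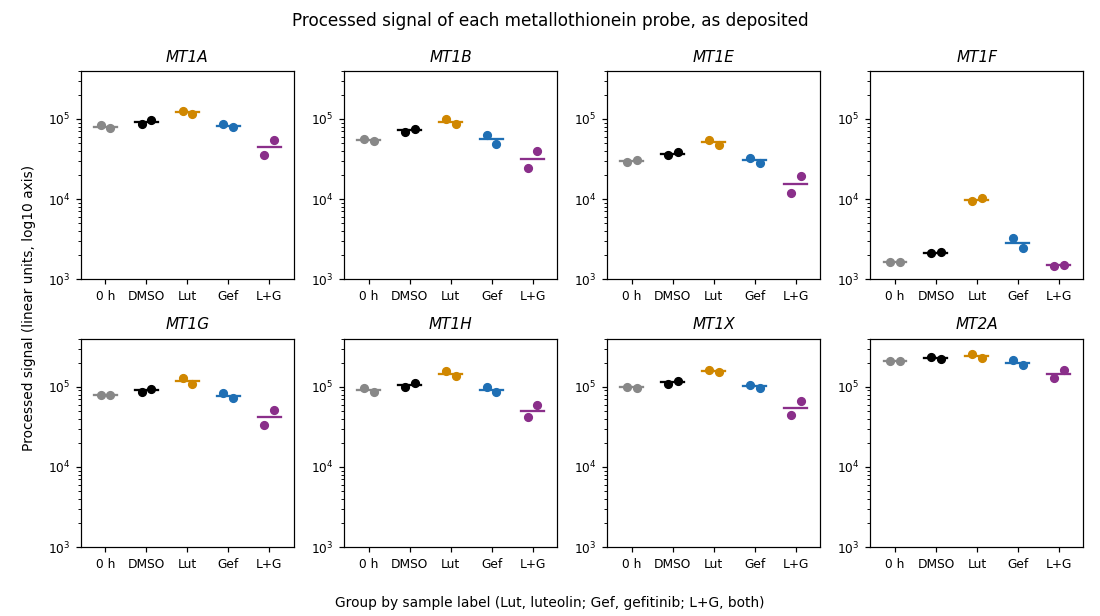
Processed signal of the probe that stands for each metallothionein gene, on a log10 axis, for the 2 arrays (points) and their geometric mean (line) of each group. MT1F stood at 9402 and 10279 with the luteolin label against 2130 and 2164 with DMSO, and all 8 genes were lowest on the 2 arrays labelled with both drugs.

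MT1F, an MT1 isoform gene in the middle of the cluster, was the member that rose in PC-3 cells treated for 24 h. Its processed signal was 1618 and 1644 at 0 h, 2130 and 2164 with DMSO, 9402 and 10279 with the luteolin label, 3274 and 2465 with the gefitinib label and 1473 and 1494 with the label of both drugs. The arrays of the luteolin label stood apart from all others, those of the gefitinib label lay above DMSO, and those of both drugs lay below it. Relative to the 75th percentile, the level was 0.71 ± 0.07 (SD, n = 2) with DMSO, 3.15 ± 0.21 with the luteolin label, 2.15 ± 0.25 with the gefitinib label and 1.12 ± 0.49 with both. On this scale MT1F rose 5.45-fold against DMSO with the luteolin label (log2 change 2.45, 95% interval 1.86 to 3.04, limma adjusted p = 0.000873). It rose 2.72-fold with the gefitinib label (1.45, interval 0.86 to 2.03, adjusted p = 0.0029). With both drugs the log2 difference was 0.41 (interval -0.18 to 1.00, adjusted p = 0.223), which did not pass the test, although both arrays lay above both DMSO arrays on this scale, as did 45.4% of all genes. By the treatments in the file names, the changes of 2.45, 1.45 and 0.41 would belong to gefitinib, to both drugs and to luteolin.

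From high to low, the level of MT1F thus ran from the luteolin label over the gefitinib label and the label of both drugs to DMSO and 0 h. The luteolin label exceeded the gefitinib label by 1.00 (log2, adjusted p = 0.0102), and the call was lost without luteolin replicate 2 (0.85, adjusted p = 0.0672) or gefitinib replicate 2 (0.82, adjusted p = 0.0592). The gefitinib label exceeded the label of both by 1.03 (adjusted p = 0.0116). Without gefitinib replicate 1 the difference of both from gefitinib was -0.85 (adjusted p = 0.0636), and without replicate 1 of both -0.68 (adjusted p = 0.052), neither called. The remaining neighbours, both drugs and DMSO, and DMSO and 0 h (0.36, adjusted p = 0.972), did not pass the test. Both drugs together lay 4.10-fold below luteolin alone (log2 difference -2.03, adjusted p = 0.00102). The rise with the luteolin label was present within each slide, at 2.34 on slide 1 and 2.55 on slide 2, and leaving out any of the 10 arrays left it between 2.30 and 2.60. The rise with the gefitinib label was 1.67 within slide 1, the only slide that held both groups. That rise depended on the scaling, since without any scaling between arrays it was 0.40 (adjusted p = 0.17), whereas the rise with the luteolin label was then still 2.20 (adjusted p = 0.0016).

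The other members changed less, and none of them passed the test against DMSO with the luteolin label. Of 8 members, 1 rose with this label and 0 fell, where 7.2% of the 19718 genes tested rose and 6.17% fell. Beside MT1F, the log2 changes ran from 0.34 for MT2A to 0.72 for MT1E, and their adjusted p-values from 0.153 to 0.437. The median over the 8 members was 0.68, and that over all genes 0.08. As deposited, the signal of MT1E was 35398 and 38645 with DMSO and 55278 and 47412 with the luteolin label. MT1X gave 109789 and 119219 with DMSO and 163248 and 151407 with the luteolin label. MT2A gave 238318 and 222666 with DMSO and 259434 and 231277 with the luteolin label. The arrays of the label were above both DMSO arrays for MT1E and MT1X and overlapped them for MT2A. In all, 7 of the 8 members, without MT2A, were higher in signal on both luteolin-labelled arrays than on both DMSO arrays, which was so for 24.7% of all genes. Relative to the 75th percentile all 8 were higher on both, as were 41.5% of all genes.

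**Figure D2:**
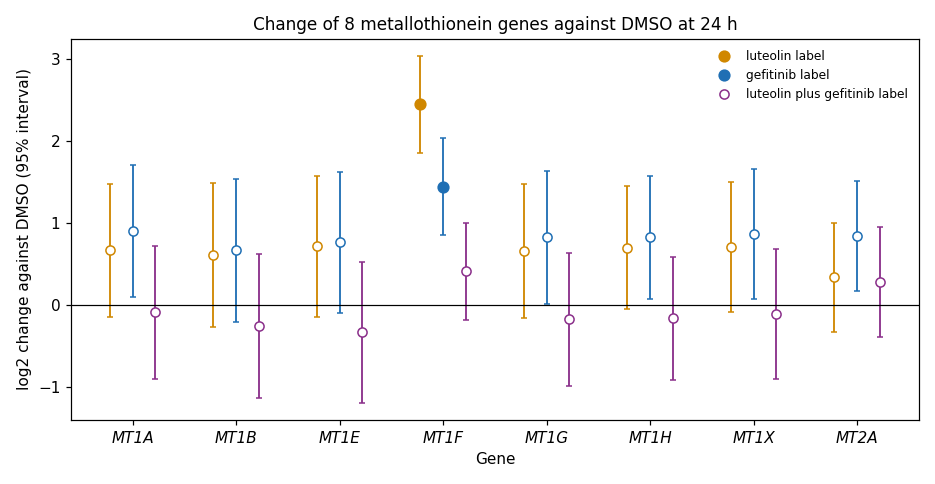
Log2 change of the 8 metallothionein genes against DMSO at 24 h, with 95% intervals from limma, on levels relative to the 75th percentile. Filled points passed the test at an adjusted p under 0.05 and at least 2-fold. They are MT1F with the luteolin label at 2.45 and MT1F with the gefitinib label at 1.45.

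With the gefitinib label, MT1F again was the only member called. 1 of 8 members rose and 0 fell, where 15.6% of all genes rose and 14.3% fell. The others lay between 0.67 for MT1B and 0.91 for MT1A. MT2A, at 0.84, passed the adjusted p of 0.0381 but not the 2-fold limit. Their median with MT1F was 0.83, and that of all genes was 0.22. These differences came with the low 75th percentile of the 2 gefitinib-labelled arrays. The signal of MT1A as deposited was 86084 and 79679 there and 85803 and 96556 with DMSO. That of MT2A was 213523 and 188778 there and 238318 and 222666 with DMSO. MT1F was the only member with a higher signal on both arrays of this label than on both DMSO arrays, where 7.42% of all genes had one, and 6 of 8 had a lower one, where 74.7% of all genes had. Relative to the 75th percentile all 8 were higher on both arrays, as were 49.2% of all genes. After quantile normalization the changes of the members other than MT1F ran from -0.15 to 0.05, and without scaling from -0.37 to -0.14. Their direction with the gefitinib label therefore turned with the scaling, while MT1F was higher under each scaling tried. With slide as a block, 4 members were called as raised, MT1A, MT1F, MT1X and MT2A, where 16.1% of all genes were. Among the 193 genes of the brightest 1% that were not members, a class chosen after the values were seen, the median change was 0.94 with the gefitinib label and 0.80 with both drugs, but 0.14 with the luteolin label.

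**Figure D3:**
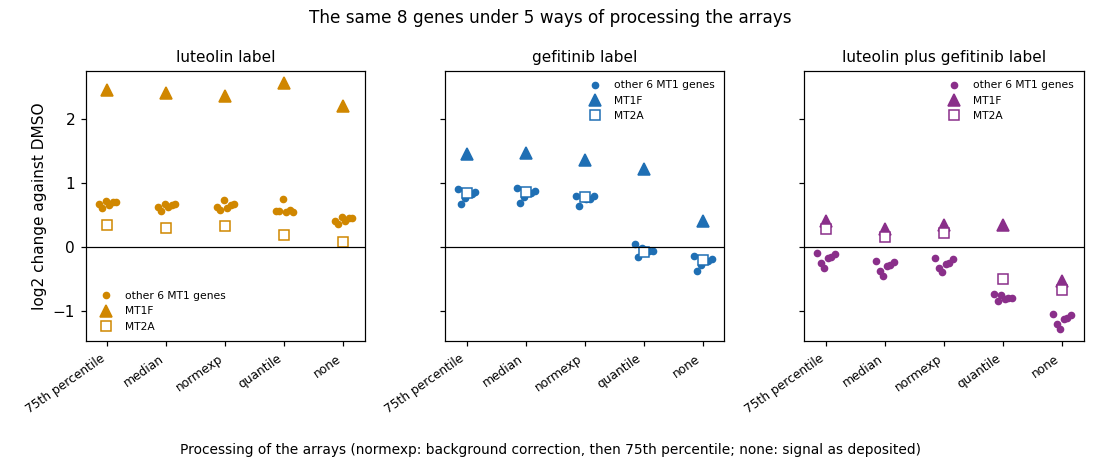
Log2 change against DMSO of MT1F (triangles), MT2A (open squares) and the other 6 MT1 genes (points) under 5 ways of processing the arrays. With the luteolin label MT1F stayed between 2.20 and 2.56, and with the gefitinib label the members other than MT1F moved from 0.67 to 0.91 with the 75th percentile to values around 0 after quantile normalization.

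With both drugs, 0 members rose and 0 fell against DMSO by limma, where 12.1% of all genes rose and 7.69% fell. None had an unadjusted p under 0.05, and the methods' t-test, a 1-sample test of each drug group against the control mean, called 0 as well. The log2 changes ran from -0.33 for MT1E to 0.41 for MT1F. The 2 arrays of this group disagreed about the family. Replicate 1 gave levels of 3.80 for MT1E, 5.70 for MT1X and 7.23 for MT2A, and replicate 2 gave 5.16, 6.96 and 8.24. Across the members the arrays differed by 0.70 to 1.40. The median SD over the members was 0.90, and that over all genes was 0.26 in this group. Within slide 1 the members differed from DMSO by -0.91 to 0.11, and within slide 2 by 0.25 to 0.80. Without replicate 2, MT1E was lower than with DMSO by 1.01 (log2, adjusted p = 0.0165), and without replicate 1 its difference was 0.35 (adjusted p = 0.184). As deposited, the signal pointed 1 way on both arrays. All 8 members had a lower signal on both of these arrays than on both DMSO arrays, where 69.3% of all genes had, and without scaling 6 of them passed as lowered, with log2 differences from -1.27 for MT1E to -1.03 for MT1A, where 37% of all genes passed as lowered and the median over all genes was -0.78. MT2A and MT1F then stood at -0.66 and -0.53 and were not called. After quantile normalization MT1F was at 0.35 and the other 7 lay from -0.84 to -0.49, under the 2-fold limit, so that the sign for MT2A, at 0.28 relative to the 75th percentile, turned with the scaling. The 75th percentile of these arrays was below that of the DMSO arrays, and its part in the difference was not tested.

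On the signal as deposited, a ratio between 2 probes of the same array does not change when the whole array is divided by a single value, as with the 75th percentile or the median, but it does change with quantile normalization. Set against MT2A, the other MT1 genes separated the groups in both directions. With the luteolin label the log2 ratio to MT2A was above its DMSO mean by 0.27 for MT1B to 0.38 for MT1E, and by 2.11 for MT1F. All 7 ratios were higher on both luteolin-labelled arrays than on both DMSO arrays, as were the ratios of 21.4% of all genes to MT2A. With both drugs the ratio was below the DMSO mean by a log2 difference of -0.37 for MT1A to -0.61 for MT1E, and 6 of 7 ratios were lower on both arrays, as were those of 26.1% of all genes. The exception was MT1F, at 0.13. These ratios use the MT2A probe of highest signal, which changed by 0.28 against DMSO with both drugs, relative to the 75th percentile. The other MT2A probes changed by 0.51 and 0.40 and MT1F by 0.41, so the value for MT1F depends on the MT2A probe. For MT1E the ratio was -2.75 and -2.53 with DMSO, -2.23 and -2.29 with the luteolin label, -2.70 and -2.73 with the gefitinib label, and -3.42 and -3.08 with both. With the gefitinib label MT1F alone lay above both DMSO arrays, at -6.03 and -6.26 against -6.81 and -6.69, as did 13.7% of all genes, and 0 of 7 lay below both, where 67.2% of all genes did. Such a ratio shows unequal change of 2 probes and not which of them moved.

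**Figure D4:**
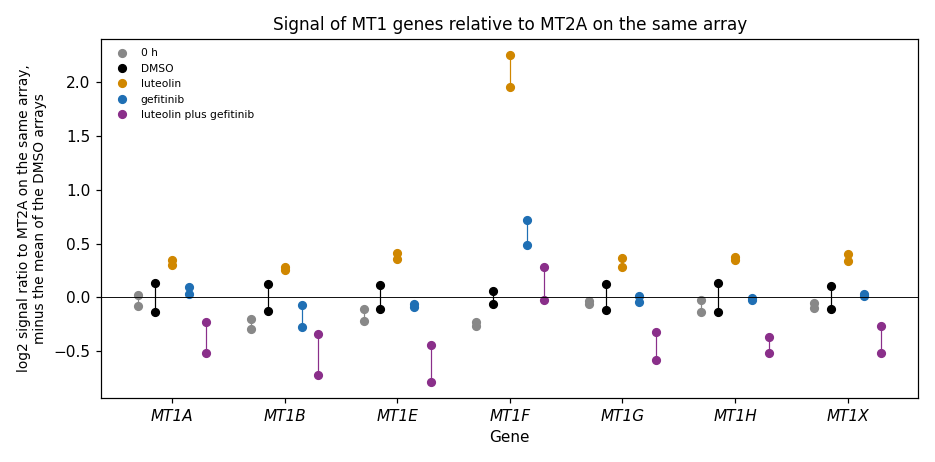
Log2 signal of each MT1 gene minus that of the MT2A probe of highest signal on the same array, less the mean of the 2 DMSO arrays. Points are single arrays, colored by group. The luteolin-labelled arrays lie above DMSO for all 7 genes, with MT1F higher by 2.11 on average, and the arrays labelled with both drugs lie below DMSO for all genes but MT1F.

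Between 0 h and 24 h with DMSO no member passed the test. Of 8 members 0 changed by limma, where 0.0304% of all genes changed, 0 had an unadjusted p under 0.05, and the methods' t-test called 0. The log2 differences ran from 0.11 for MT2A to 0.36 for MT1F, all above 0, and the interval for MT1F was -0.23 to 0.95. Against 0 h, the arrays of which every 24 h group shares, MT1F rose with the luteolin label by 2.81 (adjusted p = 0.000392). This was 1 of 8 members, where 8.26% of all genes rose. With the gefitinib label 5 members passed as raised, MT1F at 1.81 and MT1A, MT1E, MT1H and MT1X at 1.02 to 1.05, where 14.5% of all genes rose. Those 4 sat at the 2-fold limit with adjusted p-values of 0.0292 to 0.0451. Leaving out either array of 0 h or of the gefitinib label left MT1F alone, as did quantile normalization, and leaving out an array of DMSO or of the luteolin label left MT1F, MT1H and MT1X. With both drugs 0 members passed, where 19.8% of all genes changed, and MT1F stood at 0.77 (adjusted p = 0.0424), the only member with an unadjusted p under 0.05.

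Between the drug-treated groups, members were counted by the probe that stood for each gene. MT1F was the single member called between the luteolin and gefitinib labels, where 18.1% of all genes were higher with luteolin. It was also the single member lower with both drugs than with the luteolin label, where 9.75% of all genes were lower. The other MT1G probe was called as lower there too, at -1.18 (log2, limma adjusted p = 0.0414). Against the gefitinib label 2 members were lower with both drugs, MT1E by a log2 difference of -1.09 (adjusted p = 0.0416) and MT1F by -1.03, where 9.76% of all genes were lower. MT1A, MT1G, MT1H and MT1X, at -0.97 to -0.997, passed the adjusted p but fell just short of the 2-fold limit. The other probes of MT1G, MT1H and MT1X were called as lower, at -1.16, -1.12 and -1.01 (limma adjusted p of 0.0315 to 0.0451). The median over the 8 members was -0.99, beside -0.13 over all genes. The array of both drugs that was used decided these counts. Without its replicate 2, 7 members were lower than with the luteolin label, where 7.75% of all genes were, and 8 lower than with the gefitinib label, where 11.2% were. Without its replicate 1, MT1F was the only member lower than with luteolin, where 12.6% of all genes were, and 0 were lower than with gefitinib, where 9.69% were.

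The interaction of the drugs was taken as the log2 change with both, less the 2 changes with a single drug added up, each measured from DMSO. It was negative for 6 of 8 members at an adjusted p under 0.05, where 16.3% of all genes were so. The value was -3.48 for MT1F (log2, adjusted p = 0.000518) and -1.66 to -1.82 for MT1A, MT1E, MT1G, MT1H and MT1X (adjusted p of 0.0238 to 0.0347). MT1B, at -1.53 (adjusted p = 0.0598), and MT2A, at -0.90 (adjusted p = 0.125), did not pass. The median over the members was -1.67, and that over all genes -0.16. MT1F kept its call without any 1 of the 10 arrays, from -3.83 to -3.13, and under each scaling tried. It was the only member called without DMSO replicate 1 or 2, luteolin replicate 1 or 2, or gefitinib replicate 1, and with MT1H it was 1 of 2 without gefitinib replicate 2. It was also the only one called when dim probes were not filtered out. Under the treatments of the file names the interaction of the other members turned positive and was not called, while that of MT1F stayed below 0.

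Where a gene had several tested probes, they moved in the same direction against DMSO with each drug label. This did not hold in every comparison. With both drugs against the luteolin label, the MT2A probes stood at -0.06, 0.32 and 0.13 (log2). The 3 MT2A probes gave 0.34, 0.19 and 0.27 with the luteolin label and 0.84, 0.70 and 0.82 with the gefitinib label, each against DMSO. The second MT1G probe, A_23_P206707, gave 1.02 with the luteolin label (adjusted p = 0.0906), where the first gave 0.66. Across the 10 arrays the levels of MT1A, MT1B, MT1E, MT1G, MT1H and MT1X correlated with each other at 0.98 to 1.00 (Pearson), with MT2A at 0.82 to 0.90 and with MT1F at 0.78 to 0.82. MT1F and MT2A correlated at 0.63. These correlations share the scaling of the arrays and, for several MT1 probes, possible shared signal, and are given as a description.

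Of 12 further metallothionein genes listed, 5 were on the array and 4 were tested. Of these, 2 rose with the luteolin label, where 7.2% of all genes rose. They were MT1JP, a pseudogene of the cluster, by 1.77 (adjusted p = 0.0207) and MT1M, an MT1 isoform gene, by 1.73 (adjusted p = 0.028). Both were called under all 4 other ways of processing the arrays. MT1M gave processed signals of 2620 and 3525 with DMSO and 7523 and 9587 with the luteolin label, which did not overlap. MT1L, with DMSO signals of 67035 and 82034, gave 0.64 and was not called. The 3 metallothionein probes that rose with the luteolin label, for MT1F, MT1M and MT1JP, were the dimmer ones of the MT1 probes tested, with DMSO signals of 749 to 3525. Whether the brightness of a probe or the gene itself set the size of the change was not tested. 1 of 4 rose with the gefitinib label, where 15.6% of all genes rose. It was MT3, the form known from brain, by 1.17 (adjusted p = 0.0136). Its mean change was above 0 but not called without scaling, at 0.13, and after quantile normalization, at 0.93. As deposited, the MT3 signal was 2457 and 3536 with the gefitinib label and 2780 and 2622.5 with DMSO, so the arrays overlapped. With both drugs 0 of the 4 changed by limma, where 12.1% of all genes rose and 7.69% fell. Without scaling 3 of the 4, all but MT3, were lowered with both drugs, as were 37% of all genes.

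Genes that handle zinc were compared with DMSO relative to the 75th percentile. With the luteolin or the gefitinib label the part of the list called as raised was near that of all genes. With both drugs it was larger. Of 25 zinc transporters and MTF1 listed together, 21 were tested. Against DMSO, 2 rose and 0 fell with the luteolin label, where 7.2% of all genes rose and 6.17% fell. With the gefitinib label 3 rose and 0 fell, where 15.6% of all genes rose and 14.3% fell. With both drugs 6 rose and 0 fell, where 12.1% of all genes rose and 7.69% fell. Without scaling, 0 genes of this list rose with the luteolin label and 1 fell. The 2 with the luteolin label were SLC39A13 at 1.33 (adjusted p = 0.0015) and SLC39A14 at 1.06 (adjusted p = 0.00222), both importers of zinc into the cytosol. With the gefitinib label SLC39A5 was at 1.51, SLC39A4, the intestinal zinc importer, at 1.19 and SLC30A1, the zinc exporter of the plasma membrane and itself a known target of MTF1, at 1.06.

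With both drugs the largest rises in this list were those of SLC39A5 at 1.94 (adjusted p = 0.00716), MTF1 at 1.88 (adjusted p = 0.0035), SLC30A1 at 1.68 (adjusted p = 0.00952) and SLC39A2 at 1.67 (adjusted p = 0.0467). MTF1 stood at 0.47 with the gefitinib label and 0.56 with the luteolin label, neither called. In that comparison 0 of the 8 metallothioneins were called. Without scaling, MTF1 and SLC30A1 stayed above DMSO with both drugs at 0.93 and 0.73 without passing, and 0 zinc genes rose and 4 of 21 fell, while 0 rose and 9 fell with the gefitinib label, where 37% and 41.1% of all genes fell. After quantile normalization 4 rose with both drugs, and without replicate 1 or 2 of that group 5 or 4 rose.

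**Figure D5:**
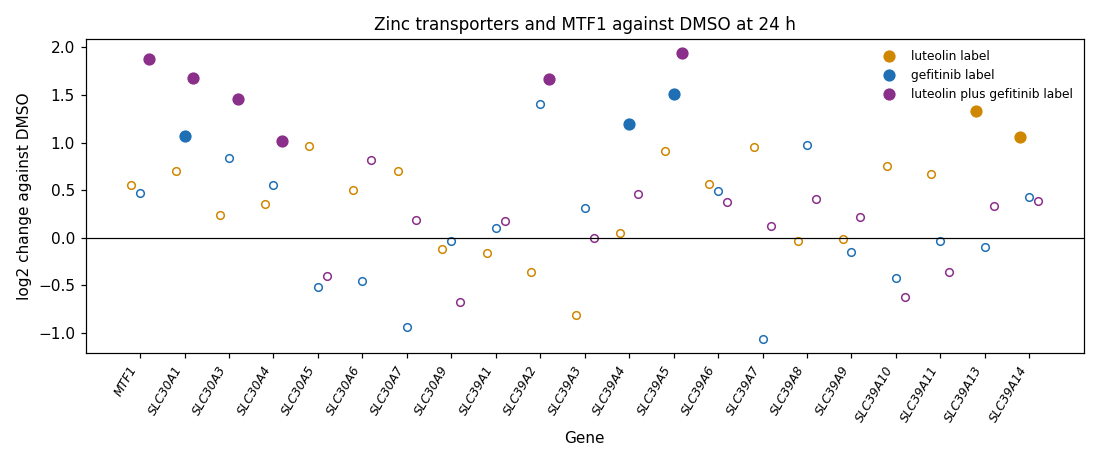
Log2 change against DMSO of MTF1 and 20 zinc transporters for the 3 drug labels, on levels relative to the 75th percentile. Filled points passed the test at an adjusted p under 0.05 and at least 2-fold. With both drugs 6 passed, among them MTF1 at 1.88 and SLC30A1 at 1.68, where 12.1% of all genes rose.

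In other groups of genes around the metallothioneins, called genes went in both directions. Of 11 copper-handling genes tested, 1 rose and 1 fell with the luteolin label, where 7.2% of all genes rose and 6.17% fell. They were SLC31A2 at 1.23 and SCO1, a factor of cytochrome oxidase assembly, at -1.21. The gefitinib label had 1 that rose, the copper chaperone ATOX1 at 1.21, and 3 that fell, among them CUTC at -1.81. Of all genes, 15.6% rose and 14.3% fell with this label. With both drugs 0 rose and 1 fell, CUTC at -1.34, where 12.1% of all genes rose and 7.69% fell. ATOX1 was not called after quantile normalization or without scaling.

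Of 9 tested genes that cadmium or zinc is known to induce besides metallothioneins, 1 rose with the luteolin label, where 7.2% of all genes rose. It was HSPA6, an inducible HSP70 gene, at 2.67 (adjusted p = 0.00103). Under the gefitinib label 2 rose, HSPA6 at 2.89 and SLC30A1 at 1.06, where 15.6% of all genes rose. The HSP70 co-chaperones BAG3, at -1.57, and DNAJB1, at -1.39, were the 2 that fell, where 14.3% of all genes fell. With both drugs SLC30A1 was the only one called, where 12.1% of all genes rose and 7.69% fell. HSPA6 was then at 0.54. HMOX1, the heme oxygenase gene, gave 2.04, 1.76 and 2.88 with the luteolin label, the gefitinib label and both, with adjusted p-values of 0.186, 0.178 and 0.0533. HSPA6, as MT1F, was called with either drug label and not with both. How many of all genes shared this pattern was not counted, and a link between these genes was not tested.

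Of 9 glucocorticoid-responsive genes, all tested, 2 rose and 1 fell with the luteolin label, where 7.2% of all genes rose and 6.17% fell. With the gefitinib label 2 rose and 1 fell, where 15.6% of all genes rose and 14.3% fell. With both drugs 4 rose and 1 fell, where 12.1% of all genes rose and 7.69% fell. FKBP5, a co-chaperone of the glucocorticoid receptor, was lower with the luteolin label at -1.77 and with both drugs at -1.72. SGK1, a kinase gene, was lower with the gefitinib label at -2.09, and DUSP1, a MAP kinase phosphatase gene, was higher there at 1.19 and with both drugs at 1.81. Without scaling 0 genes of this list rose with any label. Between DMSO and 0 h, 0 genes changed in any of the 5 lists by limma.

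The genes whose levels over the 10 arrays were most like the mean of the 8 members, among 7677 candidates, were MACROD2 (Pearson r = 0.98), MT1L (0.98), HSD17B14 (0.96), LIMS2 (0.95) and the transcript AX721087 (0.95). The share of these correlations that comes from the scaling of the arrays was not tested.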

How the data were processed

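The intensities deposited by the authors are processed signals of Agilent Feature Extraction, version 10.7.3.1 per the file headers, background-subtracted within each array and not normalized between arrays. From these, control spots were left out, as were outlier spots unless all spots of a probe were flagged. Spots of a probe were averaged as log2 signal, and each array was set relative to its 75th percentile. Each member probe had 1 spot, so its signal was neither averaged nor left out. A probe entered the fit where at least 1 group had it well above background on each of its arrays, which kept 28776 of 41000 probes and 19718 genes, each represented by the probe of highest mean. limma 3.58.1 in R 4.3.3 was fitted to all 5 groups (5 residual degrees of freedom and 3.35 from the prior), with Benjamini-Hochberg adjustment of the p-values across the 28776 probes. A call needed an adjusted p under 0.05 and a 2-fold change, and the interaction needed no fold. Coordinates of probes are on hg18. The fit was tested on simulated data. No column of per-sample values was left unused.

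The members and the lists (other metallothioneins, zinc transporters with MTF1, copper handling, genes induced by cadmium or zinc, glucocorticoid-responsive genes) were chosen with earlier results of these data known. All members are named, at most 4 called genes of a list by size, genes given for comparison with them, and the 5 genes most like the family, among those with an SD of at least 0.5. MT1L and HMOX1 were named after their values were seen. Alternatives are given with their effect in the closing section. The number of arrays limits the precision.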

Additional observations from a re-analysis of the deposited data

Results flagged for a closer look

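The effect of adding the second drug differed from the effect of either alone, by a test of the interaction in limma, for 6 members. The log2 interaction was -3.48 for MT1F, -1.82 for MT1E, -1.69 for MT1H, -1.68 for MT1X, -1.66 for MT1A and -1.66 for MT1G. For MT1F both single-drug labels lay above DMSO and the label of both drugs lay close to it. For the other 5 the call was lost without either DMSO array, without either luteolin array and without gefitinib replicate 1. Under the treatments of the file names their interaction turned positive and was not called. The 2 arrays labelled with both drugs differed by 1.17 to 1.36 in these genes. What separated those 2 arrays was not tested.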

How the results depend on the processing

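The rises of MT1F against DMSO with the luteolin and gefitinib labels kept their direction under every alternative that kept the labels. Counts of members called that moved by over 1.5 times were these, and smaller moves are not listed. Except where a share is printed, the share of all genes called under the same setting is not given here. The counts show how calls of members moved and do not set members against other genes. Normexp background correction with an offset of 50 gave 2 members for gefitinib against 0 h, 0 for luteolin against gefitinib and 2 for both against luteolin. Quantile normalization gave 2 for luteolin against 0 h, 1 for gefitinib against 0 h, 7 for both against luteolin and 0 for both against gefitinib. No filter on dim probes gave 1 for both against gefitinib and 1 for the interaction, and probes well above background on all 10 arrays gave 2 for both against luteolin. Slide as a block gave 4 raised for gefitinib against DMSO, 8 for gefitinib against 0 h, 0 for luteolin against gefitinib, 2 for both against luteolin and 6 for both against gefitinib. Only the groups compared in the fit gave 0 for both against gefitinib. No scaling, chosen after seeing the data, gave 0 raised for gefitinib against DMSO, 6 lowered for both against DMSO, 0 for gefitinib against 0 h, 7 for both against luteolin and 0 for both against gefitinib. Scaling to the median, also chosen after seeing the data, gave 8 for gefitinib against 0 h, 0 for luteolin against gefitinib, 2 for both against luteolin and 7 for both against gefitinib. No minimum fold gave 2 raised for gefitinib against DMSO, 1 for both against 0 h and 6 for both against gefitinib, and taking the median of a gene's probes gave 4 for both against gefitinib. The methods' t-test, unadjusted at 0.05, gave 8 raised for luteolin against DMSO (11.8% of all genes), 3 raised for gefitinib against DMSO (13.9% of all genes), 8 for luteolin against 0 h, 2 for luteolin against gefitinib and 0 for both against either drug, and after Benjamini-Hochberg adjustment it gave 0 in each of these and for gefitinib against 0 h. The methods' t-test has no form for the interaction and was not run for it. The table of values held the same signals and moved no count. The cause was not tested, except that fewer probes or arrays enter some of these fits.

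The treatments of the file names gave 0 raised for luteolin against DMSO, 1 raised for both against DMSO, 0 for luteolin against 0 h, 1 for gefitinib against 0 h, 5 for both against 0 h, 2 for both against luteolin, 1 for both against gefitinib and 1 for the interaction. They turned 21 probe values round. These were, for both against 0 h, 1.05 (MT1H), 1.10 (MT1G) and 1.04 (MT1E), for luteolin against gefitinib -2.03 (MT1F) and -1.18 (MT1G), for both against luteolin 1.03 (MT1F), 1.12 (MT1H), 1.16 (MT1G), 1.09 (MT1E) and 1.01 (MT1X), for both against gefitinib 0.18 (MT1H), 0.046 (MT1E) and 0.026 (MT1X), and for the interaction 0.40 and 0.28 (MT1H), 0.14 and 0.34 (MT1G), 0.37 (MT1E), 0.26 and 0.23 (MT1X) and 0.33 (MT1A). Here the arrays of a group are exchanged, which is the cause by construction. Over 3263 probe values under all alternatives, 2897 kept their direction and their side of the threshold or were uncalled, 217 were no longer called and 128 were newly called.

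Leaving out each array in turn gave 1 to 6 members for gefitinib against 0 h, 0 to 1 for both against 0 h, 0 to 1 lowered for both against DMSO, 0 to 1 for luteolin against gefitinib, 1 to 7 for both against luteolin, 0 to 8 for both against gefitinib and 1 to 8 for the interaction. A group left with 1 array took its spread from the remaining groups. Calls over all genes may also move when an array is left out, and their shares are not given beside these counts. The counts therefore do not show swings particular to the members. With replicate number as a block (a replicate block), 2 members were called for both against luteolin and no other count moved. The differences between replicates of the same number correlated between groups at -0.09 to 0.29, over 0.1 in 6 of 10 pairs of groups, so the numbers were not taken as pairs. Depth is set by signal over background, which did not limit any member kept.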
